A study of Mus musculus with 6 samples.

Results

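The thyroid hormone, steroid and retinoic acid receptors are nuclear receptors, proteins that bind DNA and switch genes on or off when their small ligand is present. The 10 genes described here were chosen by name. They are Dio2, Thra and Thrb of thyroid hormone action, Nr3c1 and Nr3c2 of corticosteroid action, Rara, Rarb and Rarg of retinoic acid action, and the orphan receptors Nr2f1 and Nr2f2. All probe sets that the platform annotation gives to one of these symbols alone were taken, which made 10 of the 18193 genes named on the array and 25 of its 45037 probe sets that are not array controls. Expression was measured on Affymetrix whole-genome mouse arrays in differentiated mouse inguinal fat cells, 3 samples treated with rosiglitazone (1 uM, 4 days) and 3 labelled as controls. Rosiglitazone is a thiazolidinedione drug that activates PPARγ, itself a nuclear receptor. The labels give no strain, age or sex of the mice, do not say whether replicates are separate cultures, and do not list the hormones in the medium, the ligands of these receptors.

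Thyroid hormone is made mostly as the prohormone T4, and the deiodinase encoded by Dio2 converts it inside the cell to T3, the form that the receptors bind. Glucocorticoids promote fat cell differentiation through the receptor encoded by Nr3c1, and their supply inside fat cells is raised by the enzyme encoded by Hsd11b1. Retinoic acid made from vitamin A acts through receptors that pair with RXR, the same partner that PPARγ and the thyroid hormone receptors use.

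The values were probe set intensities as the authors deposited them, with a floor of 16 before log2 was taken. Array medians lay between 44.5 and 46.7, and arrays of one group correlated at 0.993 to 0.995 over the probe sets tested, against 0.971 to 0.973 between groups. Of the markers of fat cells, Adipoq, the gene of the fat cell hormone adiponectin, read 13158 ± 238 with rosiglitazone and 12829 ± 147 in control cells (mean ± SD, n = 3 each). Of 7 tested markers of this kind Cidec was higher (log2 change 0.28), Pparg (−0.36), Cebpa (−0.25) and Lipe (−0.23) were lower, and 3, Adipoq among them, were not called. Among all genes read at their brightest probe set, 23.0% were called higher and 35.3% lower. Of 11 tested macrophage markers 10 were lower with rosiglitazone, with a summed intensity of 3822 to 4140 per rosiglitazone array and 11454 to 12452 per control array. Of 8 tested fibroblast and preadipocyte markers 7 were lower, with sums of 11179 to 11621 per rosiglitazone array and 21187 to 21680 per control array. Of 7 smooth muscle and pericyte markers 4 were lower, Myh11 (−1.96), Cnn1 (−1.58), Tagln (−1.08) and Acta2 (−0.70), and Cspg4 and Des were higher, with sums of 4792 to 4906 per rosiglitazone array and 8097 to 8555 per control array. Of 8 endothelial markers Flt1 (−1.57) and Tek (−1.15) were lower, Sox18 (0.46) was higher, and the defining markers Pecam1, Cdh5, Kdr, Emcn and Vwf were too dim to test; the tested 3 summed to 171 to 191 per rosiglitazone array and 380.4 to 396 per control array. Their part in the results below was not tested, and in such bulk samples fewer cells of a type and less RNA per cell cannot be told apart.

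Of the 25 probe sets, 20 were bright enough to test, from 9 of the 10 genes. With limma (Benjamini-Hochberg adjustment over 27022 probe sets, threshold 0.05), 5 of the 20 were higher with rosiglitazone and 6 were lower; 1 of the 5, a dim Dio2 set, passed the filter only through its rosiglitazone values. The same test called 51.9% of all probe sets tested, 21.2% higher and 30.7% lower, so the number of calls among the receptors was near that of the array as a whole. After median centring of the arrays the split over all probe sets turned to 8709 higher and 5697 lower, against 5721 and 8294 as deposited, and that of the receptors to 5 and 2. The groups did not overlap in 11 of the 20, beside 58.3% of all probe sets tested. Read at the brightest set, 3 of the 9 genes rose and 3 fell, beside 58.3% of all genes called in either direction. Rarb rose and Thra fell by more than 2-fold at their brightest probe set. Calls with a change of at least 2-fold made up 1.37% of all probe sets tested for rises and 3.94% for falls. Dio2 and Thrb rose by less, and the small falls of Nr3c1 and Nr2f1 depended on how the arrays were scaled. Nr3c2, Rarg and Nr2f2 did not pass the test at their brightest probe set. An exact permutation test of 3 against 3 arrays cannot give a two-sided p below 0.1, so the adjusted p-values are those of limma fitted to all probe sets.

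**Figure D1:**
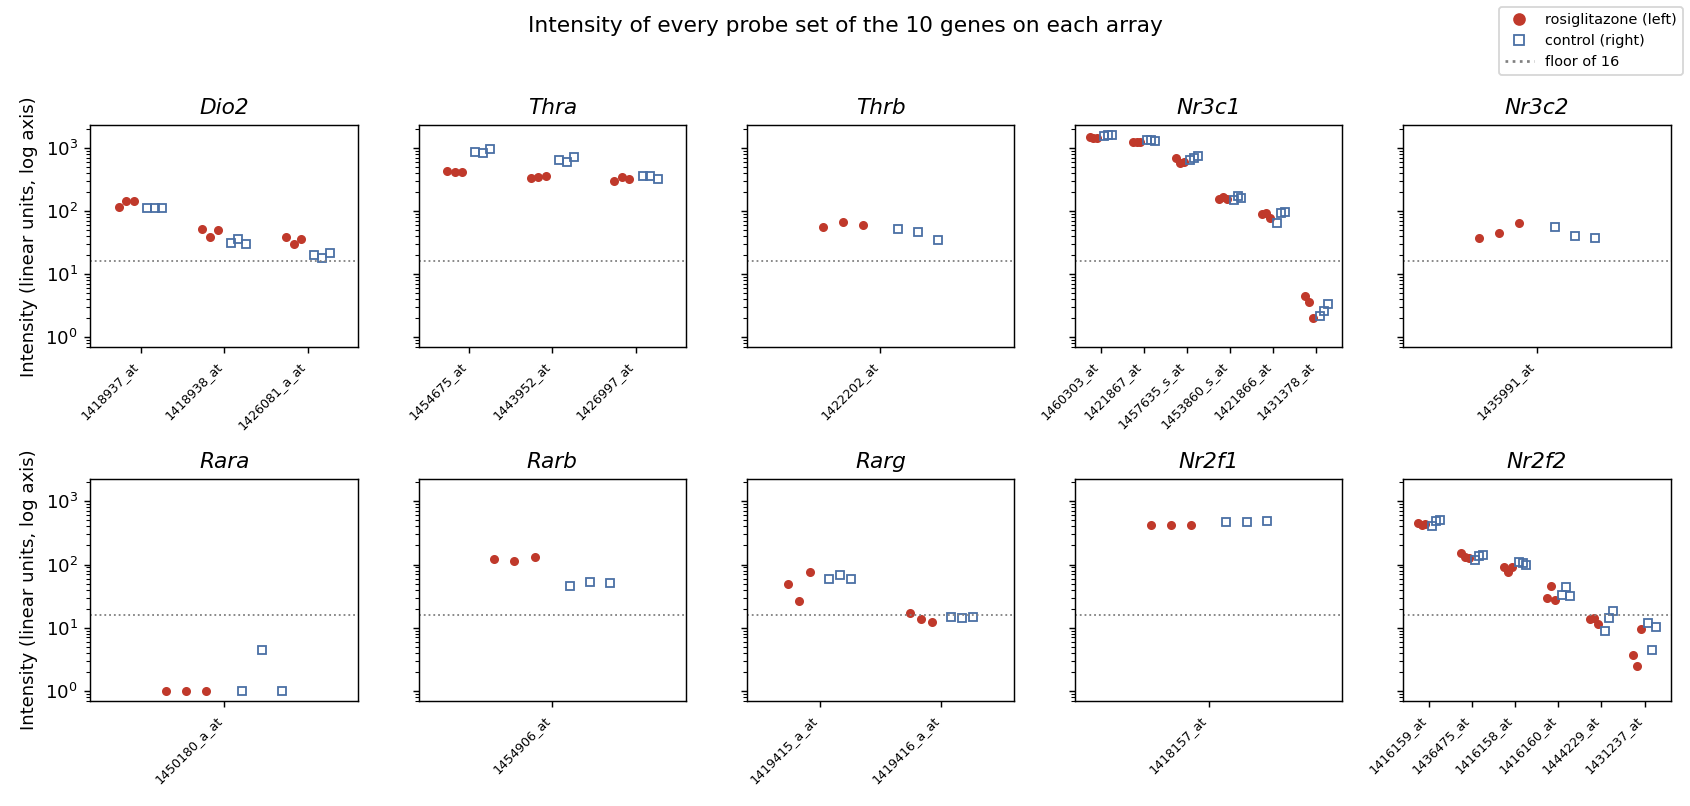
Intensity (log axis) of each of the 25 probe sets on the 3 rosiglitazone arrays (filled circles, left of each tick) and the 3 control arrays (open squares, right), with 1 panel per gene and the floor of 16 as a dotted line. The Rarb arrays and those of 2 Thra sets separate by about 2-fold, and the single Rara set lies under the floor on all 6 arrays.

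Dio2 encodes type 2 deiodinase, the enzyme through which brown fat makes its own T3. Its brightest probe set, 1418937_at, read 115, 145 and 146 on the rosiglitazone arrays and 111, 111 and 112 on the control arrays. The control arrays lay within a narrow band, and 1 rosiglitazone array sat just above it. The log2 change was 0.27 (SE 0.10, limma adjusted p = 0.0389). The call was lost when any array other than the rosiglitazone replicate 1 array was left out (log2 changes of 0.21 to 0.27), with no filter on low values (adjusted p = 0.166) and with the lowest 20% left out (adjusted p = 0.114).

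Both other Dio2 sets were dimmer. Set 1418938_at read 51.8, 38.6 and 49.5 with rosiglitazone and 31.3, 35.5 and 30.2 in control cells, a log2 change of 0.52 (SE 0.18, limma adjusted p = 0.0275). Its call was lost without rosiglitazone replicate 1 or 3 or control replicate 1 or 3, at log2 changes of 0.44, 0.47, 0.50 and 0.47, and with no filter on low values (adjusted p = 0.0648). Set 1426081_a_at read 38.2, 30.4 and 36.5 with rosiglitazone and 19.9, 18.01 and 21.9 in control cells, a log2 change of 0.81 (SE 0.23, limma adjusted p = 0.00692). Its mean over the 6 arrays, 27.48, was barely above the lowest mean kept, 27.35, so it was tested only because of its level in the rosiglitazone group and its call adds no support to those of the brighter sets. In both brighter sets every rosiglitazone array exceeded every control array, where 24.2% of all probe sets tested did so. Neither dimmer Dio2 set differed from the brightest in its change at the threshold, and the dimmer sets were not compared with each other. The dimmest exceeded the brightest by 0.54 (95% interval 0.12 to 0.96, limma adjusted p = 0.0874 over 10214 pairs of sets of 1 gene). Because the dimmest was tested only through its rosiglitazone level, that comparison cannot decide whether the sets changed alike.

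Dio2 is known as a gene that adrenergic signalling switches on through cyclic AMP. Its promoter is shown because that route has a recognisable DNA element, the cyclic AMP response element. The 300 bases around its start, from RefSeq on GRCm38.p6 at chr12:90738989-90739288 on the minus strand, hold 1 match to TGACGTCA, in capitals, at −95 to −88 from the start. The motif reads the same on both strands, and 1.79% of 32851 promoter windows of this length hold it. A match describes the letters alone.
Dio2: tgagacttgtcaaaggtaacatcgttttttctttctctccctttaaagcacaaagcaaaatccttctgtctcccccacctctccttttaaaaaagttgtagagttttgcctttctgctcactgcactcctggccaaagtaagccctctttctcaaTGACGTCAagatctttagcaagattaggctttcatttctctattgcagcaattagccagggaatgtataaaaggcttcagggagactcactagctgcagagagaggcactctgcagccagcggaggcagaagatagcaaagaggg

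Thra encodes thyroid hormone receptor alpha, whose gene makes both a hormone-binding form and a splice form that does not bind T3. The brightest Thra set, 1454675_at, read 424, 419 and 406 on the rosiglitazone arrays and 872, 838 and 955 on the control arrays. Set 1443952_at read 327, 342 and 352 with rosiglitazone and 644, 597 and 702 in control cells. For both sets the groups lay far apart and the rosiglitazone arrays were the tighter group. The first fell by 1.09 on the log2 scale (SE 0.05, limma adjusted p = 1.1e-10), a 2.13-fold decrease. The second fell by 0.92 (SE 0.06, limma adjusted p = 4.0e-09), or 1.90-fold.

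The remaining Thra set, 1426997_at, read 295, 340.2 and 320.2 with rosiglitazone and 355, 353 and 325 in control cells. Its groups overlapped, and its log2 change of −0.11 (95% interval −0.26 to 0.03, limma adjusted p = 0.165) did not pass the test. Its change exceeded that of the brightest Thra set by 0.98 (95% interval 0.73 to 1.22, limma adjusted p = 0.00296), the one called difference among 11 pairs of sets of the receptor genes. Over all 10214 pairs on the array 15.8% were called. In the 16 alternatives where it could be computed this difference stayed between 0.88 and 1.04 and was called in each. The annotation used here does not say which Thra splice forms each set reads.

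The gene next to Thra, Nr1d1, encodes the clock repressor REV-ERBα and is known to be read from the opposite DNA strand; the RefSeq gene bounds of both genes overlap at their ends. Its single probe set, 1426464_at, was looked up because of this overlap after the Thra values were seen. It read 29.5, 29.9 and 33.2 with rosiglitazone and 49.6, 56.1 and 54.8 in control cells. Nr1d1 thus fell as well, by 0.79 on the log2 scale (SE 0.17, limma adjusted p = 0.000847). Whether any Thra set reads the stretch that both genes share was not tested.

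**Figure D2:**
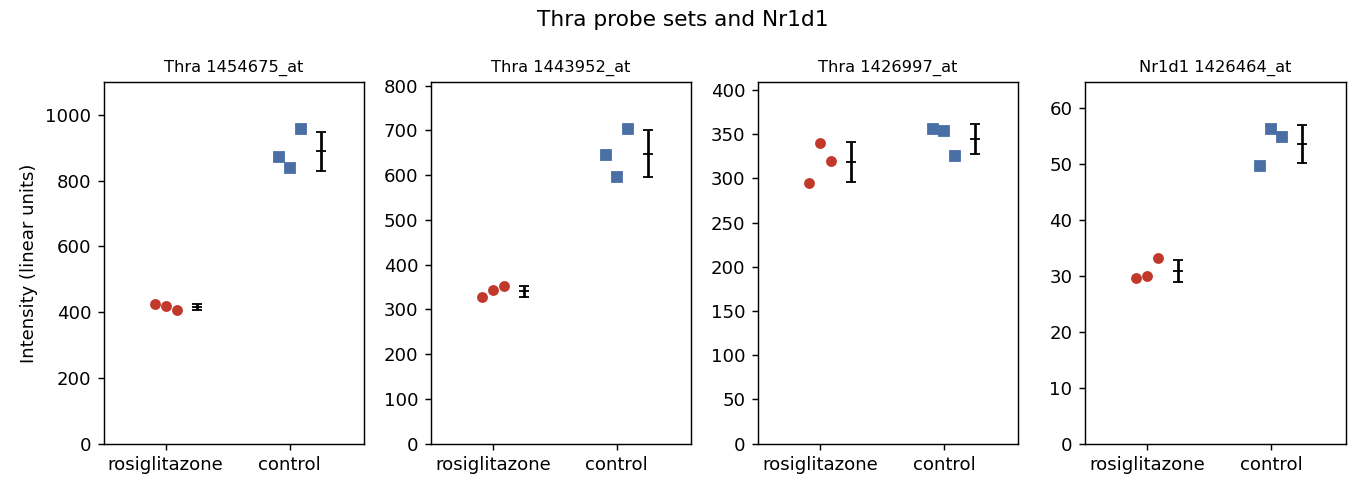
Intensity (linear axis from 0, own scale per panel) of the 3 Thra probe sets and of Nr1d1 on the 3 rosiglitazone arrays (circles, left) and the 3 control arrays (squares, right), with mean ± SD (n = 3) beside each group. Sets 1454675_at and 1443952_at separate by treatment, with means of 416 and 341 for rosiglitazone and 888 and 648 for control, and set 1426997_at overlaps.

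Thrb encodes thyroid hormone receptor beta. Its single probe set, 1422202_at, was dim, at 56.6, 66.2 and 60.1 with rosiglitazone and 51.7, 46.1 and 34.2 in control cells. The groups did not overlap, but the control arrays spread widely. Thrb rose by a log2 change of 0.49 (SE 0.17, limma adjusted p = 0.0253). The call was lost without rosiglitazone replicate 2 (log2 change 0.43) or control replicate 3 (0.32), and also with no filter on low values (adjusted p = 0.146) or with the lowest 20% left out (adjusted p = 0.0874). On these arrays the alpha and beta receptor genes therefore had log2 changes of opposite sign at their brightest sets.

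The list of other thyroid hormone genes held transporters, deiodinases, cofactors and known T3 targets. Of 12 listed genes 7 could be tested, each at its brightest set; 0 rose and 3 fell at the limma threshold, and 3 of the 7 had an unadjusted p under 0.05. Among all 12952 genes taken at their brightest set 23.0% rose and 35.3% fell. Hr, which encodes the corepressor Hairless and is a T3 target in brain, read 43.6, 32.2 and 54.2 with rosiglitazone and 136, 125 and 132 in control cells. It fell by 1.63 on the log2 scale (SE 0.16, limma adjusted p = 3.8e-07), and by 1.03 with a floor of 64, above all its rosiglitazone values. A second Hr set, 1422110_at, did not, at 57.9 ± 1.5 and 58.2 ± 4.2 (SD, n = 3 each; limma adjusted p = 0.980).

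Klf9, a transcription factor gene that both T3 and glucocorticoids induce in other cells, fell by 0.24 on the log2 scale (SE 0.03, limma adjusted p = 2.1e-06) at an intensity of 8331 ± 300 with rosiglitazone and 9840 ± 108 in control cells. After median centring the fall was 0.12, still called. Of 7 Klf9 sets tested 6 fell, by 0.24 to 0.67, and the dimmest had a log2 change of 0.29 (limma adjusted p = 0.296). Me1, which encodes malic enzyme, a T3 target in liver, fell by 0.14 (SE 0.03); after median centring its change was −0.02 and not called. Thrsp, a T3 and lipogenic target, was among the brightest sets, at 12681 ± 102 with rosiglitazone and 12606 ± 98 in control cells, with a log2 change of 0.01 (limma adjusted p = 0.766). After quantile normalization 1 gene of this list was higher and 3 were lower, and after median centring 2 were higher and 2 lower. Dio1, which encodes the liver and kidney deiodinase, was under the floor on all 6 arrays.

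Nr3c1 encodes the glucocorticoid receptor, and it had 6 probe sets. The brightest, 1460303_at, read 1463, 1434 and 1422 with rosiglitazone and 1529.81, 1572 and 1574 in control cells. The next, 1421867_at, read 1233, 1226 and 1222 with rosiglitazone and 1321, 1332 and 1298 in control cells. In both, every rosiglitazone array was below every control array, where 34.1% of all probe sets tested showed this. The log2 changes were −0.11 and −0.10 (SE 0.03 and 0.04, limma adjusted p = 0.0115 and 0.0246), changes of 1.08-fold and 1.07-fold.

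These falls of Nr3c1 were not independent of the scaling. After median centring, which moved the median change of all probe sets tested by 0.12, the log2 changes of both sets were 0.0080 and 0.021 and neither was called. After quantile normalization they were −0.04 and −0.03, also not called. Set 1457635_s_at was called too, at −0.18 (SE 0.07, limma adjusted p = 0.0287), though its groups overlapped, at 679, 574 and 586 with rosiglitazone and 645, 699 and 743 in control cells. It was likewise not called under either scaling. Fitted without limma's variance trend, none of these 3 Nr3c1 sets was called. Leaving out rosiglitazone replicate 2 also ended all 3 calls (an adjusted p just past the threshold for 1460303_at, 0.0798 for 1421867_at and 0.142 for 1457635_s_at). The call of 1421867_at was also lost without rosiglitazone replicate 3 or control replicate 1 or 2 (adjusted p = 0.0637, 0.0584 and 0.0790). That of 1457635_s_at was lost without rosiglitazone replicate 3 or control replicate 2 or 3 (adjusted p = 0.0988, 0.0795 and 0.112), with the lowest 20% left out (0.157) and with no filter (0.250). Neither 1453860_s_at (log2 change −0.03) nor 1421866_at (0.05) passed. Set 1431378_at was under the floor on all 6 arrays. None of the other tested Nr3c1 sets differed from the brightest, 1460303_at, in its change at the threshold, and they were not compared with one another.

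Nr3c2 encodes the mineralocorticoid receptor, which also binds glucocorticoids. Its single set, 1435991_at, was dim and its groups overlapped, at 37.1, 43.9 and 63.9 with rosiglitazone and 55.3, 39.4 and 37.6 in control cells. The log2 change was 0.11, with a 95% interval of −0.34 to 0.57 (limma adjusted p = 0.688), which leaves room for a change in either direction.

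Most listed genes of corticosteroid action were lower. The list held enzymes, chaperones of the receptor and genes that glucocorticoids are known to induce. Of 19 genes tested 15 fell and 2 rose, with a median log2 change of −0.57, against −0.05 over all genes tested. The share that fell was 78.9%, beside 35.3% of all genes tested, and the count of falls was 15 or 16 in each of the 17 alternatives. Hsd11b1, which encodes the enzyme that regenerates active glucocorticoid inside fat cells, read 915, 917 and 950.1 with rosiglitazone and 3296, 3276 and 3211 in control cells. It fell by 1.81 on the log2 scale (SE 0.03, limma adjusted p = 3.8e-15), a 3.52-fold decrease with tight groups far apart.

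Lcn2, which encodes the secreted protein lipocalin 2, fell by 2.30 (SE 0.05) to 297 ± 13 with rosiglitazone, against 1467 ± 78 in control cells. Errfi1, a feedback inhibitor gene of the EGF receptor, fell by 1.36, and Ddit4, an inhibitor gene of mTORC1, fell by 1.24. Of further listed genes, chosen after their values were seen because glucocorticoids induce them in many cells, Fkbp5 fell by 0.77, Tsc22d3 (GILZ) by 0.80 and Per1 by 0.42. Fkbp5, a co-chaperone of the receptor, read 3112, 3283 and 3371 with rosiglitazone and 5635, 5586 and 5429.95 in control cells. The 2 rises were of chaperone genes, Fkbp4 at 0.28 and Hsp90aa1 at 0.17. Hsd11b2, which encodes the opposite, glucocorticoid-inactivating enzyme, had a log2 change of 0.09 and Stip1 of −0.10, and neither passed the test. Most macrophage, fibroblast and smooth muscle markers given above, with Flt1 and Tek, fell on the same arrays, and their part in these falls was not tested.

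**Figure D3:**
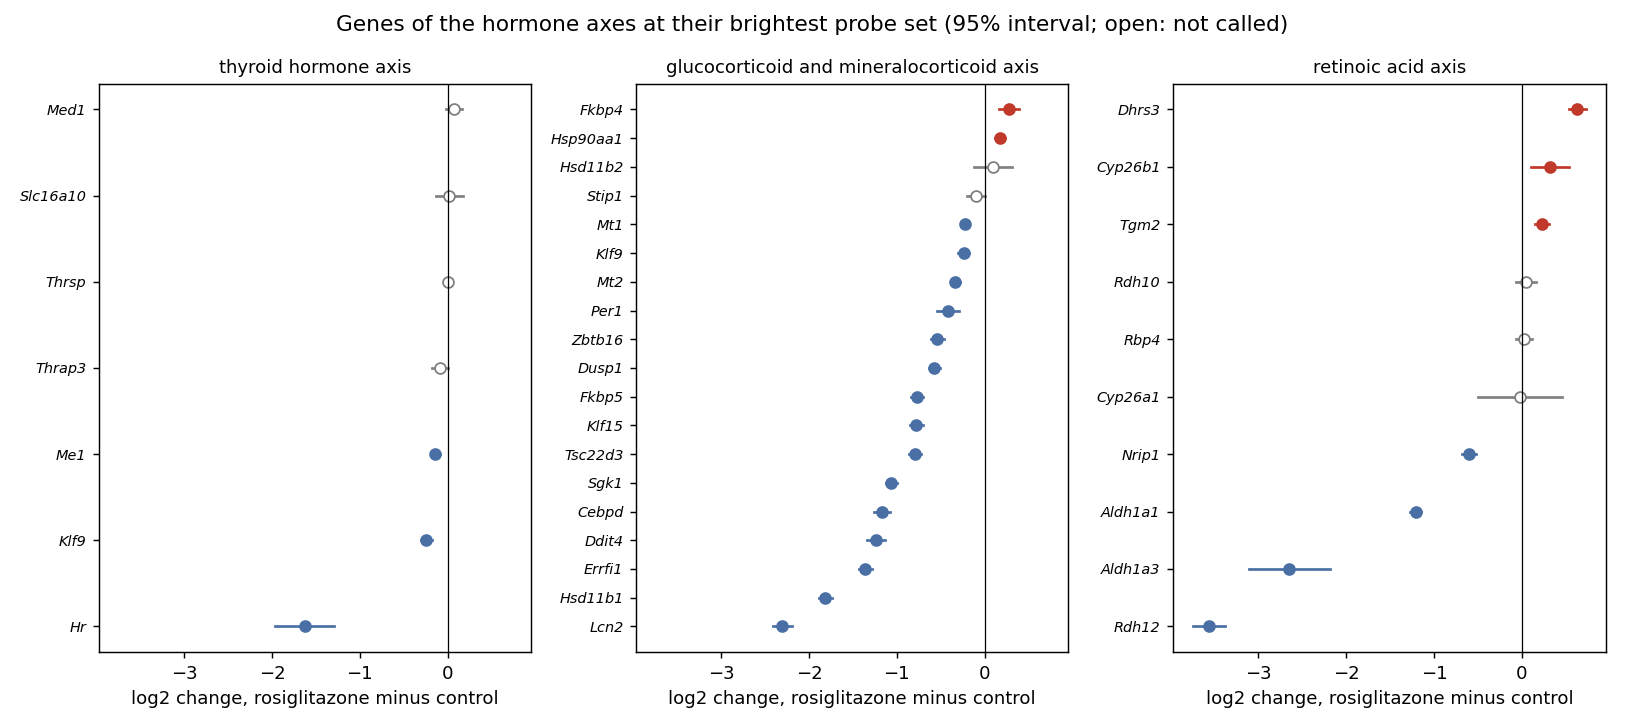
Log2 change (rosiglitazone minus control, with limma's 95% interval) of each tested gene of the thyroid hormone, corticosteroid and retinoic acid lists at its brightest probe set, filled where called and open where not. Most points of the corticosteroid list lie left of 0, 15 of 19 called lower, while the retinoic acid list has called genes on both sides.

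Rarb encodes retinoic acid receptor beta, a receptor gene that retinoic acid itself switches on. Its single probe set, 1454906_at, read 121, 114 and 133 with rosiglitazone and 46.5, 53.4 and 51.1 in control cells. The lowest rosiglitazone array was more than 2-fold above the highest control array. Rarb rose by a log2 change of 1.28 (SE 0.12, limma adjusted p = 1.6e-07), a 2.43-fold increase. Across the 17 alternatives the change lay between 0.93 and 1.40 and was called in each.

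The Rarb promoter is shown because it holds the element through which retinoic acid receptors are known to act on their own gene, a direct repeat with a spacer of 5 bases. The window from RefSeq on GRCm38.p6 is chr14:16575427-16575726 on the minus strand. It holds 1 match to GGTTCA and AGTTCA with 5 bases between them, searched on both strands, at −53 to −37 from the start, with GGTTCA and AGTTCA in capitals. Of 32851 promoter windows of the same length 2 hold this motif, or 0.00609%. The letters searched for were those of the known Rarb element, not a general repeat of this kind. A match here was therefore given in advance, and its rarity is no evidence. The match is a description of the letters and says nothing of binding in these cells.
Rarb: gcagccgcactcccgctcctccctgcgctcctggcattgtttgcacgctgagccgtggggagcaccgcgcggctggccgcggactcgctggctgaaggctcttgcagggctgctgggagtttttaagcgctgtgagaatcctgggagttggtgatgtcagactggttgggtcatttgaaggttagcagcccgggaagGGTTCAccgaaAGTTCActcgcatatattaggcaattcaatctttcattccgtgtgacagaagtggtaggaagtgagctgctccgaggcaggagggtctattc

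Rara, the alpha receptor, had 1 probe set, 1450180_a_at. It was under the floor on all 6 arrays, at 1.00 on all 3 rosiglitazone arrays and 1.00, 4.50 and 1.00 on the control arrays, so the set was not tested. Rarg, the gamma receptor, had 2 sets. Set 1419415_a_at read 48.3, 26.1 and 75.8 with rosiglitazone and 59.6, 67.3 and 57.9 in control cells. The rosiglitazone arrays straddled the control arrays and spread nearly 3-fold, and the log2 change of −0.43 (95% interval −1.01 to 0.15, limma adjusted p = 0.209) did not pass the test. Single arrays decided this value: without rosiglitazone replicate 3 it was −0.79 and called (limma adjusted p = 0.00873), and without rosiglitazone replicate 2 it was −0.02 and not called. Set 1419416_a_at lay between 12.4 and 16.9 and was not tested.

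Genes that make, store, break down or answer to retinoic acid went both ways. Of 10 tested genes of this list 3 rose and 4 fell, with a median log2 change of 0.00. Over all genes tested 23.0% rose and 35.3% fell, so the shares of this short list were near those of the array. The falls included genes of enzymes that handle retinaldehyde, the precursor of retinoic acid. Rdh12, a retinaldehyde reductase gene, fell by 3.56 on the log2 scale (SE 0.09, limma adjusted p = 5.1e-14), and read 44.2 ± 3.8 with rosiglitazone and 521 ± 18 in control cells. Aldh1a1, a retinaldehyde dehydrogenase gene abundant in white fat, read 2270, 2324 and 2311 with rosiglitazone and 5419, 5315 and 5211 in control cells, and fell by 1.21. Aldh1a3, which encodes another retinaldehyde dehydrogenase, fell by 2.64 (SE 0.22). It read 35.0, 19.8 and 18.4 with rosiglitazone, near the floor, and 127, 180.4 and 136 in control cells. With a floor of 64 it fell by 1.19. Its rosiglitazone mean, 24.4, was under the lowest mean kept, 27.35, so it passed the filter only through its control values. Aldh1a3 is nevertheless counted among the 4 falls.

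Nrip1, the corepressor RIP140 and a retinoic acid target in other cells, fell by 0.60. Dhrs3, a retinaldehyde reductase gene that retinoic acid induces, rose by 0.63 (SE 0.05, limma adjusted p = 9.7e-09), to 1839 ± 93 with rosiglitazone against 1186 ± 60 in control cells. The other rises were of Cyp26b1, which encodes a retinoic acid degrading enzyme (0.32), and Tgm2, a transglutaminase gene known as a retinoic acid target (0.23). After median centring 5 genes of the list were higher and 4 lower. Crabp2, the carrier that passes retinoic acid to its receptors, was too dim on average to test. It read 43.5, 23.5 and 16.3 with rosiglitazone and 4.43, 5.06 and 2.25 in control cells, all 3 control arrays under the floor. Aldh1a2, Crabp1 and Stra6 were also too dim to test. Aldh1a2 was the lower with rosiglitazone, at 6.86 ± 0.90 against 11.9 ± 3.6 in control cells, all at or under the floor. The groups of Crabp1 and of Stra6 overlapped.

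Nr2f1 and Nr2f2 encode the orphan receptors COUP-TFI and COUP-TFII, which can compete with other nuclear receptors for DNA. COUP-TFII has been reported to restrain fat cell differentiation. The single Nr2f1 set, 1418157_at, read 421, 427 and 418 with rosiglitazone and 480, 475 and 481 in control cells. The spread within each group was small and the groups did not overlap. Nr2f1 fell by 0.18 on the log2 scale (SE 0.05, limma adjusted p = 0.00550), a 1.13-fold decrease, but after quantile normalization the change was −0.08 and after median centring −0.06, and neither was called.

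Nr2f2 had 6 sets, of which 4 were tested and 0 called by limma; 1 of the 4 had an unadjusted p under 0.05. The brightest, 1416159_at, read 461, 424 and 439 with rosiglitazone and 403, 481 and 509 in control cells. The rosiglitazone arrays lay inside the range of the control arrays. Its log2 change was −0.07, with a 95% interval of −0.22 to 0.09 (limma adjusted p = 0.484), and without control replicate 1 it was −0.17 and called. Set 1416158_at did not overlap between groups, at 91.8, 75.7 and 90.7 with rosiglitazone and 108, 105 and 96.8 in control cells, but its log2 change of −0.27 narrowly missed the threshold (limma adjusted p = 0.0556). Leaving out rosiglitazone replicate 1 brought it past the threshold (−0.32), as did weighting the arrays (−0.36). The other tested sets had log2 changes of 0.03 and −0.11. Sets 1444229_at and 1431237_at were too dim to test.

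**Figure D4:**
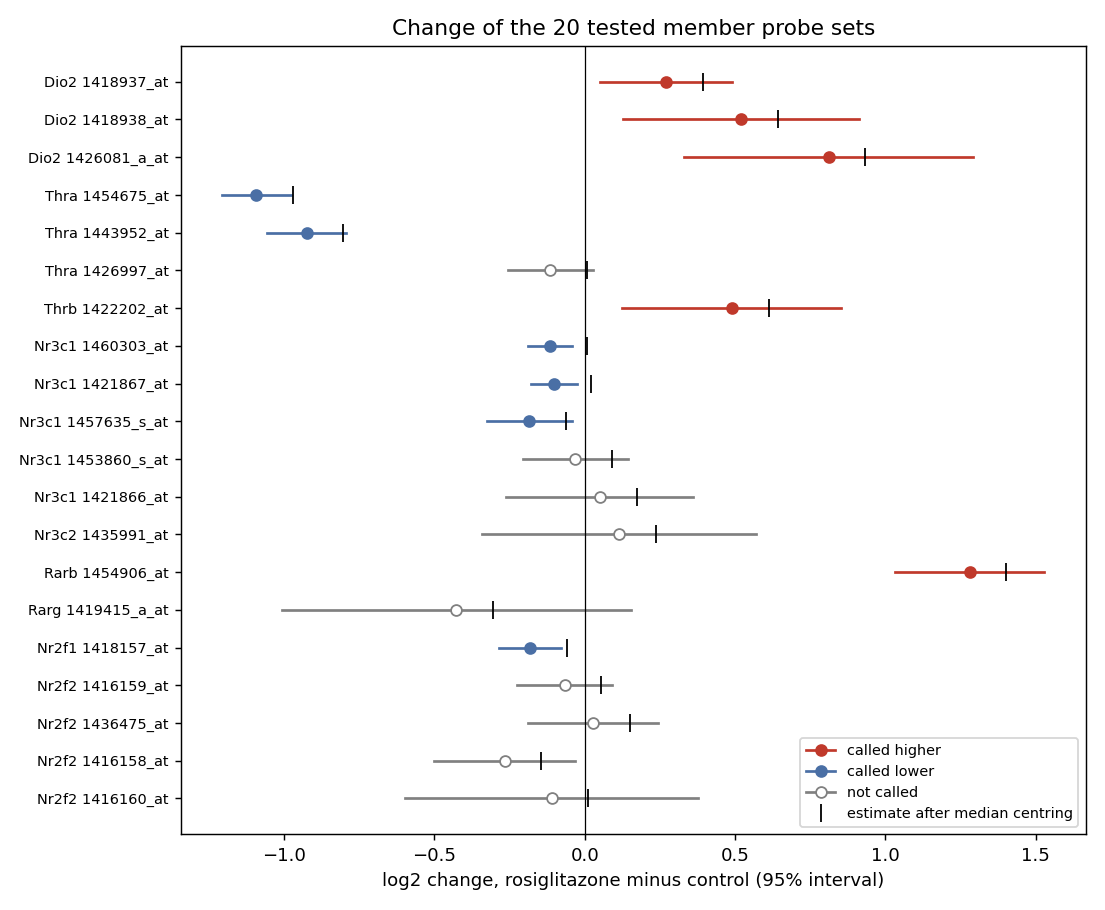
Log2 change (rosiglitazone minus control, horizontal axis) of the 20 tested probe sets with limma's 95% interval, filled where called higher or lower and open where not called, and the estimate after median centring as a black tick. Rarb at 1.28 and 2 Thra sets at −1.09 and −0.92 stand apart from 0 under both scalings, while the ticks of the called Nr3c1 sets and Nr2f1 lie near 0.

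Coregulators are the proteins that receptors recruit to open or close chromatin. Of 27 tested coregulator genes 14 fell (51.9%) and 6 rose (22.2%), beside 35.3% and 23.0% of all genes tested. The median log2 change of the list was −0.18. After quantile normalization 12 fell and 9 rose, and after median centring 10 fell and 10 rose. Ppargc1a, which encodes the coactivator PGC-1α, rose by 1.18. Tbl1x, a subunit gene of the NCoR and SMRT corepressor complex, fell by 0.89, to 1160 ± 49 with rosiglitazone against 2155 ± 123 in control cells. Zfpm2 and Zfpm1 encode FOG cofactors of GATA factors, and FOG2, the Zfpm2 product, also binds COUP-TFII. They fell by 1.01 (SE 0.07) and 0.66 (SE 0.11), and a second Zfpm2 set fell by 0.52.

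Among the other nuclear receptors, 27 of 40 listed genes were tested, 9 of which rose and 9 fell. Of the 9 tested genes described above 3 rose and 3 fell, the same shares of 33.3% each. Over all genes tested 23.0% rose and 35.3% fell. Ppara, the PPAR of fatty acid oxidation, rose by 1.83 and Rxrg, a partner of the thyroid and retinoic acid receptors, by 0.91. Nr4a1 and Nr4a3, immediate early receptor genes, fell by 0.98 and 1.02. Nr4a3 was dim, at 20.1 ± 9.1 with rosiglitazone and 44.1 ± 4.8 in control cells. Its rosiglitazone mean was under the lowest mean kept, 27.35, so it was tested only because of its control values. Its call therefore adds no support, yet it is counted among the 9 falls, so the equal shares above rest partly on it. A second Nr4a3 set, too dim to test, read 22.9 ± 5.1 with rosiglitazone and 22.7 ± 8.8 in control cells. Without a filter on low values 5 genes of this list were higher.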

How the data were processed

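Per the labels' protocols, biotin-labelled cRNA was made from total RNA for Affymetrix mouse arrays. The authors' deposited values were linear intensity, for 45101 probe sets on 6 arrays. No source used here names the software behind them. Near-equal array medians and means (452 to 463) show that arrays had been brought to a common level, so small changes depend on that scaling. Samples were grouped by title, since the treatment protocol text names the drug for controls too. Probe sets with exactly 1 platform symbol were named (34945; 932 had several, 9160 were not listed). The 64 control sets and the 40% with the lowest mean (under 27.35) were left out of testing. Intensities under 16 were set to 16 and log2 taken. R 4.3.3 and limma 3.58.1 (lmFit, eBayes with trend, two-sided, no covariate) compared groups over 27022 probe sets with Benjamini-Hochberg adjustment. Intervals are limma's. Each gene was read at its brightest tested set, and other sets were compared with it by limma on their log2 difference. The test was checked on simulated data in which few probe sets changed, so the check does not cover shifts of scaling or changes as widespread as these.

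P-values measure only how much these samples vary, possibly for technical reasons alone, and the number of arrays limits the precision. The genes, lists, tests and alternatives were chosen with earlier results of these data known. The rule for named genes took every member set, up to 4 called genes per list with the largest change, and small counts by name. Thrsp and Dio1 were named outside this rule, and other exceptions are marked. Klf9, Nrip1, Med1 and Thrap3 each stand in more than 1 list. Promoter sequences are RefSeq's, on GRCm38.p6, with windows for 8 of the 10 genes. Alternatives were other filters, floors, scalings and variance models, a block for the replicate number, weights for arrays, and each array left out.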

Additional observations from a re-analysis of the deposited data

How the results depend on the processing

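The called rise of Rarb, the called falls of 2 Thra sets and the difference between Thra sets kept their direction and call in every alternative where they could be computed. The count of receptor probe sets called higher, 5, was 2 with no filter on low values, 3 with the lowest 20% left out, 1 with a floor of 64 and 3 with only the brightest set of each gene in the fit, where fewer sets were tested; without 1 array it was 2 to 4. The count called lower, 6, was 2 after quantile normalization, 2 after median centring, 3 with only the brightest set and 3 without a variance trend; without 1 array it was 3 to 7. After median centring the Nr3c1 sets 1460303_at and 1421867_at reversed, to 0.0080 and 0.021, with neither called. Over all probe sets, 5721 were higher and 8294 lower; after median centring 8709 were higher and 5697 lower, after quantile normalization 7395 and 6731, and with only the brightest sets 3057 and 4635. Genes of the hormone, coregulator and receptor lists called higher numbered 20, and 31 after median centring. With array weights 2 pairs of sets were called in place of 1. A floor of 64 hid Dio2 sets 1418938_at and 1426081_a_at, Nr1d1 and Nr4a3, all below it on every array, and nearly all of Thrb. It cut the falls of Hr and Aldh1a3 to −1.03 and −1.19. It also ended the call of Dio2 set 1418937_at, which lay above it on every array. The cause of the other changes was not tested.

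Replicate numbers did not pair the samples: deviations of same-numbered arrays correlated at −0.04, −0.02 and 0.02. Fitted with a replicate block, 5 receptor sets were higher and 6 lower, the same counts as without it, and over all probe sets 5589 and 8188. Dim sets limit what can be said of Rara, Rarg, Nr3c2 and part of Dio2.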
